A study of Homo sapiens with 105 samples.

Results

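NPR3, GABRP, DPP4 and SMPD3 are 4 of the 26330 gene symbols listed in each of 5 deposited RNA-seq tables. They were chosen by their deposited fold changes, among the lowest in granulosa cells expressing the C134W mutant of FOXL2 relative to cells with an empty vector, so that contrast describes them and tests nothing. The question put to the tables was whether wild-type FOXL2 lowers the same RNAs, and how TGF changes each of them.

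The cells were HGrC1, a human granulosa cell line, and KGN, a line from a human granulosa cell tumour that is heterozygous for FOXL2 C134W. HGrC1 cells carried 1 of 3 constructs, delivered by transduction: wild-type FOXL2 (WT), the mutant (C134W) or the empty vector (EV). Each of these 3 lines was sampled with and without TGF, giving 6 groups of 3 libraries. KGN was also sampled with TGF (5 libraries by the labels) and without (4 libraries). All cells grew in Ham medium with 10% FCS. The promoter of the vector, the number of clones behind each transduced line, and the dose and duration of TGF were not given in the sources used here. No label states that the 3 libraries of a group were separate cultures, and p-values then cover only the spread between these libraries.

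FOXL2 is a forkhead transcription factor that maintains the identity of granulosa cells, the somatic cells that surround the oocyte. TGF ligands signal through SMAD2 and SMAD3, which enter the nucleus with SMAD4 and act on genes together with other DNA-binding factors. The 4 genes encode proteins of the cell membrane or its lipids. NPR3 is the clearance receptor that binds and internalises natriuretic peptides, GABRP is the pi subunit of the GABA-A receptor, DPP4 (CD26) is a surface peptidase that removes dipeptides after proline or alanine, and SMPD3 is neutral sphingomyelinase 2, which cleaves sphingomyelin to ceramide.

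In the RefSeq annotation of GRCh38.p14, NPR3 spans chr5:32690872-32791720, GABRP chr5:170782720-170814047, DPP4 chr2:161992245-162074215 and SMPD3 chr16:68358327-68448508. NPR3 and GABRP lie on the same chromosome but far apart. The RefSeq promoter table held 2 windows for NPR3 and 1 each for GABRP and DPP4, each running from 250 bases before a transcription start to 50 bases after it. The promoter table held no window for SMPD3. The windows are shown because NPR3 and DPP4 were lower than in EV with either FOXL2 protein, and GABRP was so with TGF. A further reason was that GABRP was higher and DPP4 lower with TGF in EV cells. Capitals mark the short SMAD-binding element, CAGAC or GTCTG on the other strand. Each sequence is written 5′ to 3′ on the gene's own strand. The GABRP start in this table lies downstream of the first annotated base of the gene.
NPR3, first start, chr5:32690622-32690921, plus strand: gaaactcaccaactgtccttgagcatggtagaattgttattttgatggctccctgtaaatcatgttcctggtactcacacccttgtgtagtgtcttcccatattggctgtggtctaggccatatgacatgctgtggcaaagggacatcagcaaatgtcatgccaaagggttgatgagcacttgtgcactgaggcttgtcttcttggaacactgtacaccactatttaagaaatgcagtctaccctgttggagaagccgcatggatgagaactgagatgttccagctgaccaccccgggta
NPR3, second start, chr5:32710399-32710698, plus strand: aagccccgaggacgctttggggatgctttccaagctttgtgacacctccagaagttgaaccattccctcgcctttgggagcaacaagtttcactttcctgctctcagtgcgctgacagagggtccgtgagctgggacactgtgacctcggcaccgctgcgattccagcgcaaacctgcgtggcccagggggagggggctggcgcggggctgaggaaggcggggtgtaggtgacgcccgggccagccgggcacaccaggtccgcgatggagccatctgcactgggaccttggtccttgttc
GABRP, chr5:170783475-170783774, plus strand: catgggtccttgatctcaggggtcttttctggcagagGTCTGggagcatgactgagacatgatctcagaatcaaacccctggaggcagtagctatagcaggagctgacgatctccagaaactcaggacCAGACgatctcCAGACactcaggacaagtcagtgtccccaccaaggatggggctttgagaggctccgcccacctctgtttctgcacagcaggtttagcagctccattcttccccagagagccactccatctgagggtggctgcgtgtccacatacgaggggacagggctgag
DPP4, chr2:162074166-162074465, minus strand: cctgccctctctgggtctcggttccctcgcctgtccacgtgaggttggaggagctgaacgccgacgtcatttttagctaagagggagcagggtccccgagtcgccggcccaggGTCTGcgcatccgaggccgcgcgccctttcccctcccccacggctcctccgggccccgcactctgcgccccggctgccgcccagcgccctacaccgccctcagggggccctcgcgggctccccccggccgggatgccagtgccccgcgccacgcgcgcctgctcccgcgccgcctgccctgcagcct

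The GABRP window held 3 such SMAD elements, at positions -213 to -209, -122 to -118 and -111 to -107 from the start of transcription. The latter 2 sit close to each other in the same orientation. The DPP4 window held 1 such site, at -137 to -133. The windows of NPR3 held none. Of 35116 promoter windows, 45.3% held at least 1 element and 2.86% held at least 3. None of the 4 windows, which do not cover SMPD3, held the forkhead core TGTTTAC, present in 3.42% of all windows on either strand. Its shorter form TGTTTA (12.3%, which includes the former) was absent too. So was the palindrome GTCTAGAC (0.202%), which joins GTCT to AGAC, its form on the other strand. GGCGCC (19.2%) and the AP-1 motif TGANTCA (7.71%) were also absent. These matches describe letters in 300 bases and are not binding sites.

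Expression is given below as normalised reads, the reads of a gene in a library divided by the relative size of that library. The deposited tables list means over both groups of a comparison. Because these means are sums of whole reads times the worth of 1 read in each library, the reads of each HGrC1 library could be recovered for all 4 genes, with a single solution per gene and condition. Libraries are listed from the largest to the smallest, which is not the numbering of the labels. Estimated depth ran from 5490000 to 19600000 assigned reads per HGrC1 library and from 3590000 to 16500000 in KGN. A count of 3 reads, taken as the floor of detection per library, was worth 1.59 to 5.67 normalised reads. All 4 HGrC1 tables had been normalised separately, also those of the same condition. They were set on 1 scale by assuming that the median gene of C134W cells did not move with TGF. This multiplied the values of C134W and EV cells with TGF by 0.864. Values of WT cells were multiplied by 0.9905 with TGF and 0.9989 without. Ratios of EV to WT therefore also cross tables, which are joined through the C134W libraries they share.

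FOXL2 itself stood at an implied level of 9.33 normalised reads in EV cells, 1470 in WT and 1340 in C134W without TGF, and at 8.26, 1010 and 837 with TGF. In C134W against WT with TGF it was lower, at a log2 fold change of -0.27 ± 0.11 (adjusted p = 0.0339, authors' deposited table, DESeq2 Wald test), and the corresponding difference without TGF was -0.13 ± 0.06 (adjusted p = 0.0902). FOXL2 RNA was thus abundant with both vectors and scarce in EV cells. Of 16 granulosa markers, FSHR and NR5A1 had a mean under 1 in all 4 tables of HGrC1, and CYP19A1 did without TGF. AMHR2 did in all but C134W against EV without TGF. FOXL2 was the marker the vectors supplied. With FOXL2 counted, 5 of 11 tested markers were higher and 1 lower in C134W than EV without TGF, where 25.7% of all tested genes were called. With TGF 5 of 12 were higher and 3 lower, where 42.7% were called. In KGN, FSHR and WT1 had a mean under 1.

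NPR3 was low with either protein in both conditions, and lower with C134W than with WT. Its 3 EV libraries without TGF held 437, 471 and 494 normalised reads, the WT libraries 36.3, 72.7 and 44.4, and the C134W libraries 16.7, 11.5 and 17.6. All WT libraries lay below every EV library and above every C134W library. The means were 467 ± 29 in EV, 51.1 ± 19.1 in WT and 15.3 ± 3.29 in C134W (SD, n = 3 each), so that EV was 9.14 times WT and 30.6 times C134W. With TGF the EV libraries held 792, 784 and 767, the WT libraries 32.3, 41.1 and 28.4, and the C134W libraries 10.1, 12 and 6.90. EV then stood at 781 ± 13, WT at 33.9 ± 6.54 and C134W at 9.66 ± 2.58 (SD, n = 3 each), which put EV at 23.0 times WT and 80.8 times C134W. From high to low the order was EV with TGF, EV without, WT without, WT with, C134W without and C134W with TGF. Libraries of WT with and without TGF overlapped, as did those of C134W with and without TGF, and the other neighbours in this order did not overlap. In bulk RNA, fewer cells that express a gene and less RNA per cell cannot be told apart.

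GABRP behaved differently, because it was hardly detected without TGF in any group. EV libraries without TGF held 2, 3 and 0 reads, WT libraries 1, 2 and 0, and C134W libraries 1, 1 and 0. No library exceeded the floor, and no difference was detectable at this depth. With TGF the EV libraries held 463, 279 and 242 reads (294, 288 and 268 normalised), a mean of 283.5 ± 14 normalised reads (SD, n = 3). The WT libraries still held 1, 2 and 0 reads and the C134W libraries 4, 2 and 1. The level of GABRP RNA separated EV cells with TGF from the other 5 groups of HGrC1, and 1 C134W library with TGF, at 4 reads, was the only other one above the floor. Pooled over libraries with TGF, EV held 256 times the GABRP of WT, which had 3 reads in all. It held 157 times that of C134W, which had 7 reads. In EV cells the pooled reads with TGF were 168 times those without, the reference being 5 reads. The few reads in each reference leave the size of these ratios imprecise. They describe and test nothing, since C134W against EV with TGF is the contrast in which GABRP was among the lowest.

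DPP4 was lower with both proteins, and the order of WT and C134W differed with TGF. Without TGF its EV libraries held 508, 525 and 580 normalised reads, WT 65.7, 102 and 75.1, and C134W 75, 80.5 and 67.0. WT and C134W libraries overlapped, and all were far below EV. The means were 538 ± 37.2, 81.1 ± 19.1 and 74.2 ± 6.79 (SD, n = 3 each), which made EV 6.63 times WT and 7.25 times C134W. With TGF the EV libraries held 130, 136 and 123, WT 29.8, 33.8 and 15.1, and C134W 52.4, 66.6 and 64.4. The groups separated into 3 levels with C134W in the middle, at means of 130 ± 6.87, 26.2 ± 9.82 and 61.1 ± 7.62 for EV, WT and C134W (SD, n = 3 each). EV was then 4.94 times WT and 2.12 times C134W. Across the 6 groups the order was EV, EV with TGF, WT, C134W, C134W with TGF and WT with TGF. WT without TGF overlapped with both C134W groups.

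SMPD3 was low with either protein at both conditions. Its EV libraries without TGF held 268, 279 and 195 normalised reads, WT 20.8, 19.8 and 19.7, and C134W 32.0, 28.2 and 25.3. The lowest EV library was still several times the highest library with FOXL2. Means were 247 ± 45.7, 20.1 ± 0.565 and 28.5 ± 3.39 (SD, n = 3 each), so EV was 12.3 times WT and 8.67 times C134W. With TGF the EV libraries held 105, 102 and 116, WT 13.2, 4.22 and 3.78, and C134W 4.77, 9.25 and 3.45. The means became 108 ± 7.33, 7.08 ± 5.35 and 5.82 ± 3.04 (SD, n = 3 each), and EV was 15.2 times WT and 18.5 times C134W. The WT and C134W libraries with TGF overlapped and rested on 2 to 16 reads each. Without the deepest of the 3 WT libraries, which held 16 of the 22 WT reads, the log2 difference between EV and WT with TGF was 4.75 in place of 3.93.

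**Figure D1:**
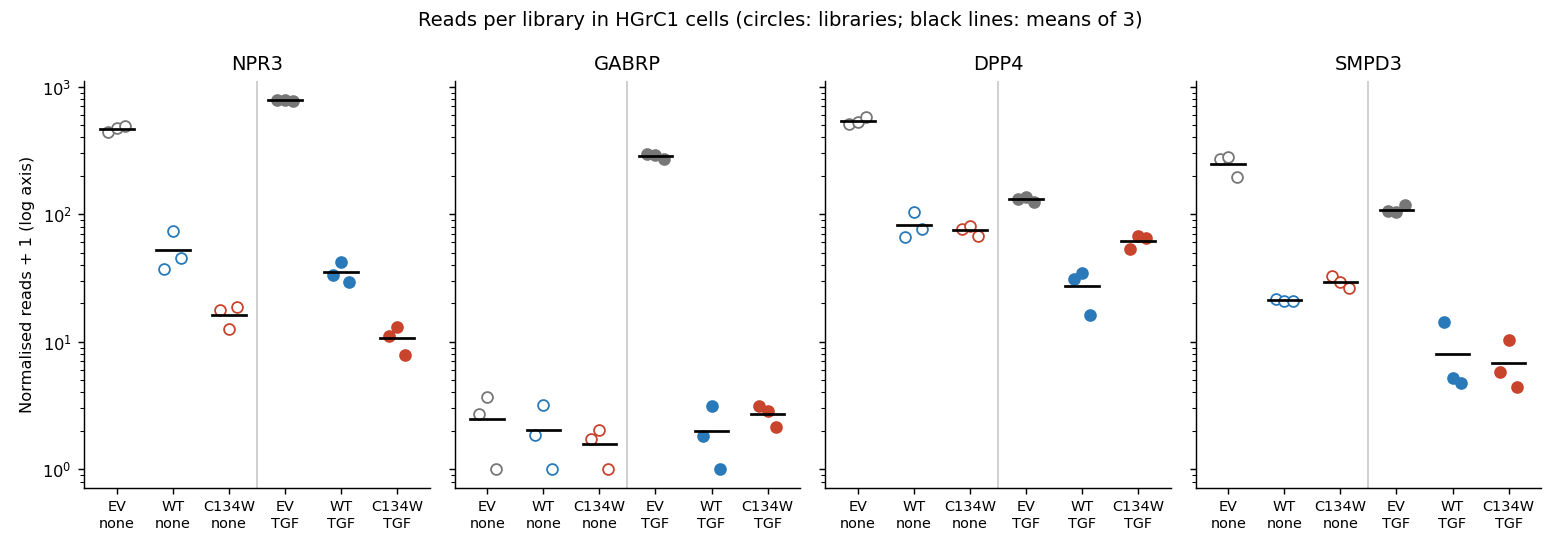
Normalised reads plus 1 (log axis) of NPR3, GABRP, DPP4 and SMPD3 in each HGrC1 library, by vector (EV, WT or C134W) and by TGF (open circles without, filled circles with), with black lines at the mean of 3 libraries. EV libraries of NPR3, DPP4 and SMPD3 lie above all WT and C134W libraries in both conditions, and GABRP reaches a mean of 283.5 normalised reads in EV with TGF.

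WT was also set against EV by difference of tables, the log2 fold change of C134W over EV minus that of C134W over WT. Without TGF the difference for WT minus EV was -3.57 ± 0.24 for NPR3, -2.62 ± 0.20 for DPP4, -2.97 ± 0.24 for SMPD3 and -0.12 ± 0.19 for GABRP, from the authors' deposited tables. With TGF it was -4.67 ± 0.34 for NPR3, -5.95 ± 0.37 for GABRP, -3.53 ± 0.41 for SMPD3 and -1.97 ± 0.29 for DPP4. The error combines the standard errors of the 2 tables in quadrature. Sharing the same C134W libraries makes it too large, but the fold changes were shrunk towards 0, which makes it too small where reads are few. For GABRP without TGF it was 0.19, while the error of C134W over EV alone was 1.76 with the shrinkage undone. For GABRP with TGF the recovered reads gave -8.18, far outside the error of 0.37 around -5.95. The error is therefore not an upper bound. Counted at a difference of at least 1 log2 unit, 3 of the 4 genes were lower in WT than EV without TGF, where 1.56% of 18283 genes were, and 4 of 4 with TGF, where 3.98% of 18617 genes were. These shares are not a test, since the EV and C134W libraries also chose the genes. Ranked from the lowest difference without TGF, NPR3 was 1, SMPD3 3, DPP4 8 and GABRP 5246. With TGF, GABRP was 1, NPR3 3, SMPD3 14 and DPP4 124.

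The authors' fold changes are shrunk towards 0 by a prior, and the size of each difference moved when this was undone. SMPD3 without TGF went from -2.97 to -3.61, and the recovered reads gave -3.62. GABRP with TGF went from -5.95 to -7.50, and the recovered reads, 3 in all in WT, gave -8.18. NPR3 without TGF was -3.48 with the prior undone and -3.19 from reads. An upper limit that needs no fold change against WT, with all reads of the C134W and WT table assigned to WT, still put WT below EV without TGF, at -2.81 for NPR3, -1.79 for DPP4 and -2.34 for SMPD3 on the log2 scale.

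The genes were not all extreme in the contrast that picked them under both conditions. In C134W against EV without TGF, 2719 genes had an adjusted p under 0.05 and a mean of 100 or more in the authors' deposited table. Of these, NPR3 had the lowest deposited fold change (-4.32 ± 0.19), with FILIP1 next at -3.26. SMPD3 was 5 (-2.75 ± 0.19), just behind SLC7A7 at -2.77, and DPP4 was 6 (-2.70 ± 0.13), followed by INHBB at -2.43. GABRP, with a mean of 1.03, was not ranked and stood at -0.14 ± 0.18. With TGF, among 5300 such genes in the authors' deposited table, NPR3 was 1 (-5.90 ± 0.21) and GABRP 2 (-5.86 ± 0.31), with ELF3 next at -4.77. DPP4 was 302 (-1.06 ± 0.17), between CA3 and C1QTNF6, each also at -1.06. SMPD3 stood at -3.68 ± 0.29 with a mean of 65.8, too low to be ranked, and was 11 of 19253 genes at any mean. DPP4 thus belonged among the lowest only without TGF and GABRP only with it.

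C134W was compared with WT by the authors' Wald test, a contrast that did not choose the genes although its C134W libraries are shared with the one that did. NPR3 was lower in C134W than in WT without TGF, at a log2 fold change of -0.75 ± 0.15 (adjusted p = 1.43e-05, authors' deposited table, DESeq2) and with TGF, at -1.23 ± 0.27 (adjusted p = 4.75e-05). The recovered reads put WT at 3.35 and 3.51 times C134W, larger than the moderated folds of 1.68 and 2.35. DPP4 did not pass without TGF, at -0.08 ± 0.14 (adjusted p = 0.757), and was higher in C134W with TGF by 0.91 ± 0.23 (adjusted p = 0.000575). SMPD3 passed in neither, at 0.22 ± 0.15 (adjusted p = 0.34) and -0.15 ± 0.29 (adjusted p = 0.752), although without TGF its lowest C134W library (25.3) exceeded its highest WT library (20.8). GABRP had no adjusted p in either table, with means of 0.81 and 1.4. In all, 1 of 3 genes with an adjusted p passed without TGF, where 22.4% of 12463 genes did, and 2 of 3 with TGF, where 34.6% of 14475 did. With the Wald statistic rescaled by its spread over all genes, the adjusted p of DPP4 with TGF was 0.121 and the call was lost.

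**Figure D2:**
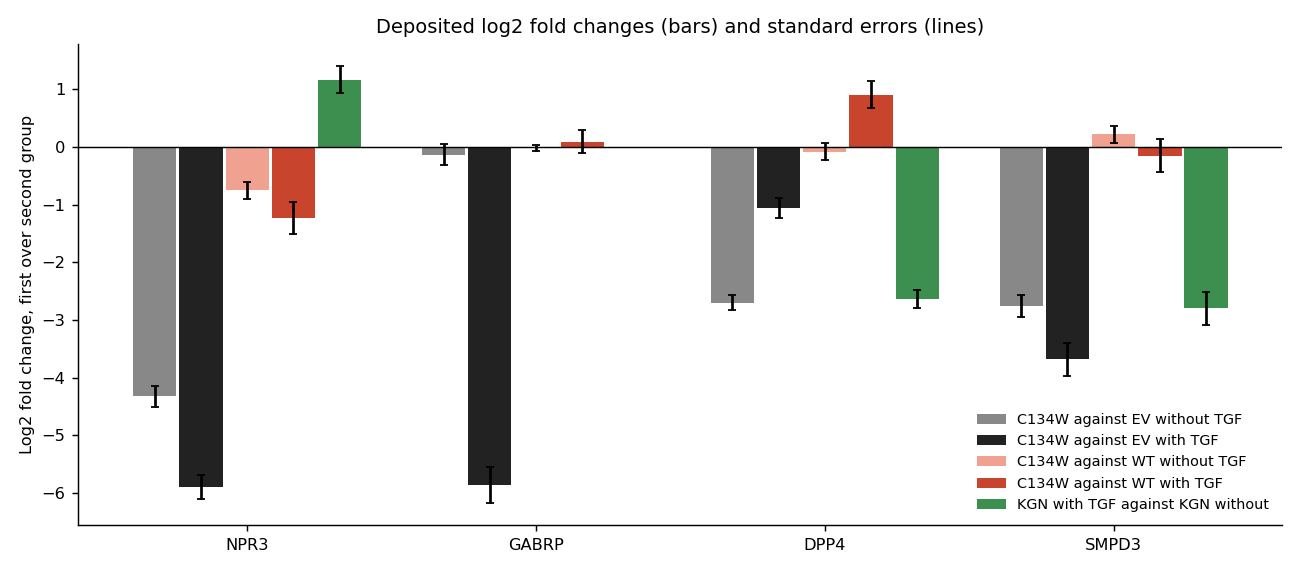
Deposited log2 fold changes (bars) with standard errors (lines) of the 4 genes in the 5 comparisons, first over second group, where GABRP has no bar in KGN because it is listed at 0. NPR3 is below 0 in the 4 HGrC1 comparisons and above 0 in KGN, and DPP4 is above 0 only in C134W against WT with TGF, at 0.91.

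Whether the gap between C134W and WT changed with TGF was tested directly, since the 2 tables share no library. Their fold changes are shrunk by priors of unequal width, inferred as 0.307 without TGF and 0.589 with it. An equal gap therefore need not give a change of 0. For DPP4 the C134W minus WT difference was 0.99 ± 0.27 higher with TGF than without (two-sided z test, p = 0.000302, adjusted p = 0.00548 over 17972 genes by Benjamini-Hochberg on the errors of the authors' deposited tables). It was the 1 gene of 4 that passed, where 8.96% of all genes did, but GABRP had too few reads for the test to decide. The adjusted p of DPP4 was 0.0666 after the z statistic was rescaled by its spread over genes, a check added after the data were seen. The changes of NPR3 (-0.48 ± 0.31, adjusted p = 0.489) and SMPD3 (-0.37 ± 0.33, adjusted p = 0.687) did not pass. That of GABRP (0.11 ± 0.21, adjusted p = 0.891) cannot be judged from so few reads. C134W held 2 reads without TGF and 7 with it, and WT held 3 in each condition. Its small error reflects the shrinkage, since the error of C134W over WT with TGF alone was 1.49 with the prior undone. In recovered reads, C134W stood at 0.914 times the DPP4 of WT without TGF and 2.33 times with it. For NPR3 the log2 ratio of C134W to WT in recovered reads was -1.74 without TGF and -1.81 with it, nearly the same.

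The response to TGF in each kind of cell is a description, because it crosses tables. In EV cells NPR3 was 1.67 times as high with TGF (log2 0.74, or 0.95 without the scaling), while in WT and C134W cells the log2 values were -0.59 and -0.66 and the libraries overlapped. DPP4 was 4.15 times lower with TGF in EV cells and 3.09 times lower in WT cells. In C134W cells DPP4 was 1.21 times lower on the common scale (log2 -0.28), where the libraries just failed to overlap, and without the scaling the log2 value was -0.07. SMPD3 was 2.29 times lower with TGF in EV, 2.84 times in WT and 4.90 times in C134W. GABRP in C134W cells had 7 reads with TGF against 2 without, and the interval of their ratio, 0.563 to 29.1, includes equality. NPR3 and GABRP were thus higher, and DPP4 and SMPD3 lower, with TGF in EV cells. These EV libraries also chose the genes. GABRP was among the lowest against EV only with TGF and DPP4 only without it. Their directions in EV cells are therefore partly set by the choice.

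KGN, from other libraries, gave a test that the choice of genes did not touch. NPR3 rose with TGF by 1.17 ± 0.24 on the log2 scale (adjusted p = 5.31e-06, authors' deposited table, DESeq2), from an implied level of 11.9 to 29.3 normalised reads. DPP4 fell by 2.63 ± 0.15 (adjusted p = 2.18e-63), from 498 to 74.8, and SMPD3 fell by 2.80 ± 0.29 (adjusted p = 3.73e-21), from 46.1 to 4.73. GABRP is listed at 0. All 3 genes with a value passed, where 39.8% of 15719 genes did. With the rescaled Wald statistic NPR3 no longer passed (adjusted p = 0.069). The table behaved as 11 libraries, 5 with TGF and 6 without, against 9 in the labels, and which of them are labelled could not be told. SMPD3 had the same direction with TGF in the EV, WT and C134W cells of HGrC1, and DPP4 had it in EV and WT cells. In C134W cells DPP4 hardly moved, at a log2 value of -0.28, or -0.07 without the scaling. NPR3 in KGN had the direction it had in EV.

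Genes that act with each member were taken from 4 lists. For NPR3 these were the 17 genes of the natriuretic peptide system. NPPB, which encodes the BNP ligand that NPR3 clears, was lower in C134W than EV without TGF (-1.12 ± 0.08, adjusted p = 1.1e-46 in the authors' deposited table) and lower than WT, at -0.41 ± 0.05 without TGF and -1.51 ± 0.07 with it (adjusted p = 2.78e-17 and 1.38e-95, DESeq2). It rose in KGN with TGF by 2.17 ± 0.24 (adjusted p = 1.82e-18), as NPR3 did. NPR2, the guanylyl cyclase receptor of C-type peptide, differed from EV with TGF only, by 0.46 ± 0.19 (adjusted p = 0.0321), and NPPC and NPR1 had means under 10 in every table, although both passed against EV with TGF, at 1.59 ± 0.45 and -1.82 ± 0.43. Against WT, 0 of 4 tested relatives were higher and 2 lower without TGF, and 0 of 10 higher and 2 lower with TGF, beside 22.4% and 34.6% of all tested genes called. The medians of these relatives were -0.01 and 0.06, against 0.0016 and 0.0010 over all genes tested.

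For GABRP, the list of 26 genes held the other GABA-A subunits and the enzymes that make and break down GABA. Most subunits were near absent: 17 genes had a mean under 1 in C134W against EV in both conditions, and GABRE had a mean of 5.88 to 6.11 there. GABRA2 was lower in C134W than EV with TGF (-2.07 ± 0.29, adjusted p = 5.78e-12, authors' deposited table, DESeq2). GAD1, which synthesises GABA, moved the other way and was higher in C134W in all 4 HGrC1 tables, by 1.55 ± 0.28 and 3.93 ± 0.24 over EV and 0.80 ± 0.15 and 2.48 ± 0.19 over WT without and with TGF. ABAT, which degrades GABA, was higher than EV by 0.96 ± 0.28 and 1.55 ± 0.21. Both rose with TGF in KGN, by 1.37 ± 0.15 and 0.77 ± 0.07. Of the tested relatives, 2 of 5 were higher and 0 lower than in WT without TGF, and 2 of 6 and 0 with it, beside 22.4% and 34.6% of all tested genes called.

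For DPP4, the list of 18 held other prolyl peptidases and proteins that bind or are cut by DPP4. ADA, adenosine deaminase, which DPP4 anchors at the cell surface, was lower in C134W than EV, at -0.68 ± 0.19 without TGF and -1.71 ± 0.19 with it (adjusted p = 0.00208 and 4.47e-19, authors' deposited tables, DESeq2). Against WT it was -0.11 ± 0.15 without TGF (adjusted p = 0.656) and lower with TGF, at -0.79 ± 0.20 (adjusted p = 0.000546), while DPP4 was higher there. ADA fell with TGF in KGN by 1.18 ± 0.25 (adjusted p = 1.08e-05). The intracellular relatives DPP8 and DPP9 showed no fold change beyond 0.33 in the 5 tables (DPP9 against EV with TGF, adjusted p = 0.000931), and FAP, the closest relative of DPP4, is listed at 0 in HGrC1 and rose in KGN by 1.68 ± 0.35 (adjusted p = 9.13e-06) at a low mean of 6.69. CXCR4, the receptor of a chemokine that DPP4 truncates, was higher in C134W in all 4 HGrC1 tables, by 0.37 ± 0.09 to 1.81 ± 0.13.

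For SMPD3, 38 of 40 listed genes of sphingomyelin and ceramide metabolism were in the tables. SMPD1, the acid sphingomyelinase, was higher in C134W than EV without TGF (0.45 ± 0.13) and lower with it (-0.46 ± 0.14, adjusted p = 0.00259 and 0.00339 in the authors' deposited tables, DESeq2). SMPD2, another neutral sphingomyelinase, differed from EV with TGF only (-0.46 ± 0.19, adjusted p = 0.0416). KDSR, an early enzyme of ceramide synthesis, was higher in C134W in all 4 HGrC1 tables, by 0.44 ± 0.07 to 1.62 ± 0.08. In KGN, 6 of 33 relatives rose and 12 fell with TGF, beside 39.8% of all tested genes called. SPHK1, a sphingosine kinase, and SPTLC2, a subunit of serine palmitoyltransferase, rose by 1.55 ± 0.19 and 0.93 ± 0.08, while SMPD1, SMPD2 and SGMS1 fell, with deposited fold changes of -0.47 ± 0.10, -0.80 ± 0.14 and -0.81 ± 0.08. Against EV, 5 relatives of 31 were higher and 5 lower without TGF and 9 of 33 higher and 12 lower with it, beside 25.7% and 42.7% of all tested genes called, and the medians of these relatives were -0.04 and -0.11.

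**Figure D3:**
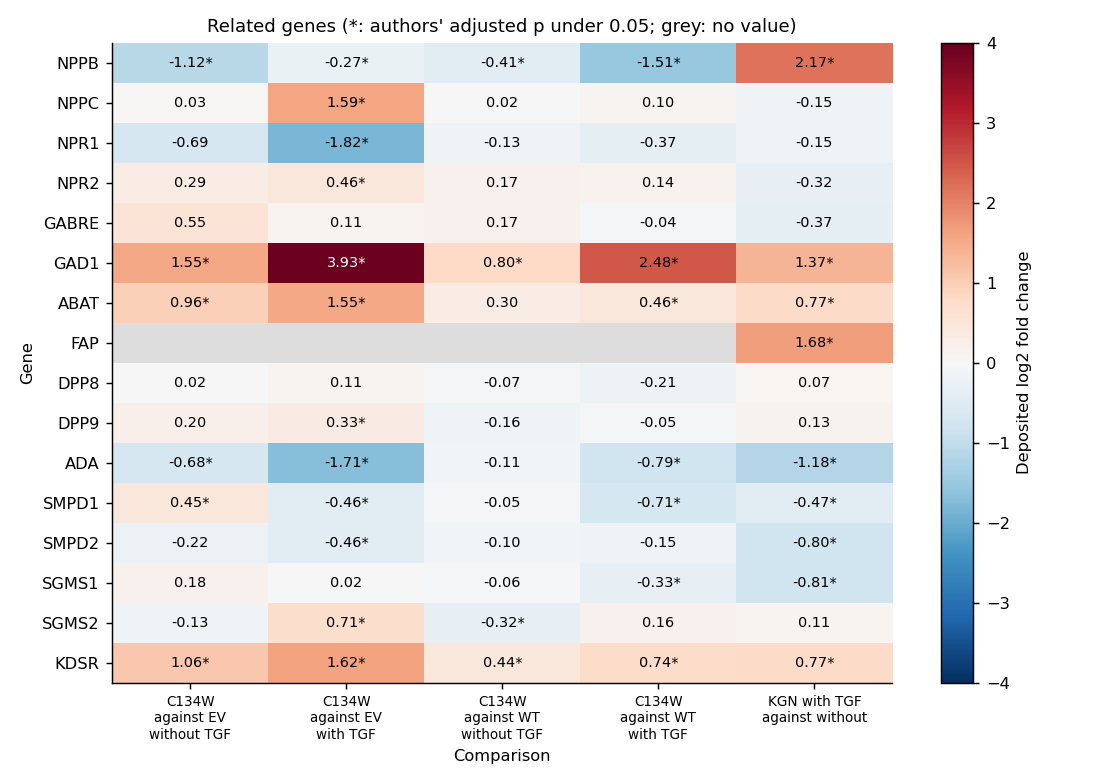
Deposited log2 fold changes (colour and number) of 16 related genes in the 5 comparisons, with an asterisk where the authors' adjusted p is under 0.05 and grey where the gene is listed at 0. NPPB is lower in C134W in all 4 HGrC1 comparisons and higher in KGN, GAD1 is higher in all 5, and DPP8 and DPP9 stay within 0.33 of 0.

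The genes whose 5 fold changes were most like those of each member were found by the root mean squared difference, over genes whose mean reached 50 in both comparisons with EV. For NPR3 they were SLC7A7 (1.23), HOTS (1.44) and CBLN2 (1.5), all distant. For GABRP, over the 4 HGrC1 tables, they were H19 (1.07), HOTS (1.13) and ELF3 (1.17), also distant. In C134W over EV without TGF these genes stood at -1.77, -2.01 and -1.78, where GABRP stood at -0.14. HOTS lies antisense within H19 and the 2 cannot be told apart in a library made without strand. For DPP4 they were NCKAP5 (0.767), LAMA3 (0.946) and TNFRSF9 (0.967), and for SMPD3 they included WNT2B (0.579) and NEBL (0.670). WNT2B stood at -2.12, -3.12, -0.36, -0.66 and -2.19 in the authors' deposited tables, in the order C134W over EV without and with TGF, C134W over WT without and with TGF, and KGN. By Pearson correlation over the same tables, 0 of the 3 nearest genes of each member were among these, so the names depend on the measure of likeness. Among the members themselves DPP4 and SMPD3 were the nearest pair, at 1.27.

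Some markers of other cell types differed from EV beside the members. Of 13 markers of ovarian surface and other epithelium, 9 were tested in C134W against EV with TGF and 6 were lower and 0 higher, where 42.7% of all tested genes were called, with a median of -1.70 against -0.0016 over all genes tested. Without TGF 4 of 8 were lower and 1 higher (KRT7, at 0.75 ± 0.14), where 25.7% were called, with a median of -0.16. The summed level of all 13 was 29860 normalised reads in EV, 34750 in WT and 28450 in C134W without TGF, and 30550, 24260 and 10950 with TGF, so that WT was above EV without TGF. Leaving out the abundant keratins, the sums were 647, 172 and 230 without TGF and 485, 151 and 95.6 with it. Of 11 theca and stroma markers, 2 of 5 tested were lower and 1 higher in C134W than EV without TGF, where 25.7% were called. With TGF 4 of 8 were lower and 1 higher, where 42.7% were called. The medians of the markers tested were -0.05 without TGF and -0.60 with it. Among the lower ones, the matrix genes DCN and LUM stood at -2.43 ± 0.20 and -2.14 ± 0.08 without TGF. With TGF they stood at -2.88 ± 0.24 and -2.93 ± 0.08 in the authors' deposited tables. All 11 summed to 19010 in EV, 21940 in WT and 31520 in C134W without TGF and 119300, 65750 and 82540 with TGF. Without COL1A1 the sums were 3065, 669 and 841 without TGF and 2230, 682 and 650 with it. INSL3, LHCGR and TCF21 had a mean under 1 in the 4 HGrC1 tables. ELF3, named above beside GABRP, is on the list of ovarian surface and other epithelium. MUC16, OVOL1 and GRHL2 had a mean under 1 in the 4 HGrC1 tables. Of 6 leukocyte markers, CD3E and LYZ had a mean under 1 in all 5 tables, and of 6 endothelial ones PECAM1 and EMCN did in HGrC1. The part of these markers in the differences of the members was not tested.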

How the data were processed

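The 5 result tables of the RNA-seq libraries were used as deposited. The chromatin immunoprecipitation samples were not analysed here. The submitters' processing notes name DESeq2, HTSeq 0.6.1, Bowtie2 and Trimmomatic 0.36.0, without their roles, and the genome build hg38. The kit (TruSeq RNA v2, per the labels) does not keep strand.

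For each gene the authors deposited a signal, a mean over both groups of size-factor-normalised counts. They also deposited a log2 fold change with its standard error on the log2 scale, a Wald statistic (a score), a p-value and an adjusted p-value. A missing adjusted p was kept as missing.

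Whole reads per library were recovered here from the deposited means. The worth of 1 read in each library is seen in genes with a single read, whose fold change has the sign of that library's group. The whole numbers that give the mean of a gene in both tables of a condition, with the same C134W reads in each, were then searched. This step was added after the tables were seen. On 200 other genes per condition the search gave 1 solution for 200. The samples could not be matched to replicate numbers. The prior that shrinks the fold changes was undone with a width of 2 times the largest standard error in a table, since the deposited error peaks at 0.5 of that width. The difference and change statistics were also run on simulated counts, and the outcome is not given here. Calls use the authors' adjusted p under 0.05. The change of a difference with TGF was assessed by a two-sided z test with Benjamini-Hochberg adjustment. Intervals of read ratios are exact 95% binomial intervals and cover counting error only.

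The 4 genes, the 4 gene lists and the marker lists were chosen with earlier results of these data known. Named relatives are up to 4 called genes per list and table with the largest fold change and a mean of at least 20, plus the direct partners of each member. The 3 nearest genes per member are named by the root mean squared difference of fold changes. Of the genes these rules name, 2 are not reported here. The older symbols GUCY1A3, GUCY1B3 and CECR1 were matched through the RefSeq table. Alternatives tried were other adjustments, thresholds, nulls, filters, scalings and centring, the prior undone, and leaving out each recovered library. Computation used Python 3.11.15, numpy 2.4.6, pandas 2.3.3, scipy 1.17.1 and matplotlib 3.10.9.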

Additional observations from a re-analysis of the deposited data

Results flagged for a closer look

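The difference between C134W and WT in DPP4 was larger with TGF than without by 0.99 ± 0.27 on the log2 scale (two-sided z test, adjusted p = 0.00548 over 17972 genes), so the gap between the 2 proteins in this gene differed between the conditions by a test of the difference itself. Every C134W library lay above every WT library with TGF, and the libraries overlapped without TGF. The call was lost when the z statistic was rescaled (adjusted p = 0.0666).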

How the results depend on the processing

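WT minus EV kept its direction for NPR3, DPP4 and SMPD3 in both conditions, and for GABRP with TGF, under every alternative run. GABRP without TGF, which rests on 10 reads in 3 groups, did not. Of the C134W to WT ratios that did not pass, DPP4 without TGF lay between -0.26 and 0.07 and SMPD3 with TGF between -0.79 and 0.54 on the log2 scale on leaving out 1 library, while SMPD3 without TGF stayed between 0.41 and 0.58. The nearest genes by Pearson correlation shared 0 of 3 with those named for each member, and a minimum mean of 20 left 1 of 3 for DPP4. Rescaling the Wald statistic by its spread over genes lowered the number of genes called from 2793 to 1486 (C134W against WT without TGF), from 5014 to 1986 (with TGF) and from 6254 to 2345 (KGN). It ended the calls of DPP4 with TGF (0.91, adjusted p = 0.121) and of NPR3 in KGN (1.17, adjusted p = 0.069), and the same rescaling of the z statistic, added after the data were seen, ended that of the DPP4 change with TGF (0.99, adjusted p = 0.0666). The cause was not tested. Adjusting over every gene with a p-value, and a threshold of 0.01, changed no call of these genes, and centring moved no WT minus EV difference beyond its error.

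For WT minus EV without TGF, recovered reads (added after the data were seen) gave -3.19 for NPR3, -0.52 for GABRP and -3.62 for SMPD3, and with TGF -8.18 for GABRP and -2.31 for DPP4. Undoing the prior gave -0.55 for GABRP and -3.61 for SMPD3 without TGF and -7.50 for GABRP with TGF. The upper limits, which assign all reads of a table to WT and use no fold change against it, were -2.81, 0.14, -1.79 and -2.34 for NPR3, GABRP, DPP4 and SMPD3 without TGF and -4.16, -6.72, -0.58 and -3.06 with TGF. Leaving out 1 library moved the log2 EV over WT of GABRP with TGF between 7.59 and 9.42, the latter without the WT library that held 2 of the 3 reads, and that of SMPD3 with TGF between 3.63 and 4.75. Leaving out a library could not be applied to the authors' tests. No paired analysis was possible because the recovered libraries cannot be matched to the replicate numbers of the labels. Depth limits GABRP without TGF, and WT and C134W values of SMPD3 with TGF.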
